A study of Mus musculus with 6 samples.

Results

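The 31 genes described here encode the enzymes of cholesterol and fatty acid synthesis, and the regulators, that answer to the sterol regulatory element-binding proteins (SREBPs). They were matched by symbol among the 32285 features of all 6 libraries, and all 31 were found. They comprise 18 sterol enzymes, 4 genes of regulation and sterol transport and 9 fatty acid enzymes. The libraries come from pancreatic tumours of KPC mice, which carry KrasLSL.G12D/+, p53LSL.R172H/+ and Pdx1-Cretg/+, so Cre under the pancreatic Pdx1 promoter switches on both mutant alleles in the pancreatic epithelium. The 3 treated mice received trametinib, a MEK inhibitor, at 1 mg/kg with hydroxychloroquine, which blocks lysosomal acidification and autophagy, at 40 mg/kg, both by mouth. The 3 vehicle mice carried the same alleles and received corn oil and water. Mice were randomised once ultrasound showed a tumour of 4 to 7 mm, and tumours were taken 24 h after treatment and dissociated for droplet single-cell RNA sequencing, 1 library per mouse. The sample titles give each library a number within its group and a code of its own, without mention of mice. Mouse age was not given in the sources used here.

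Cells make cholesterol from acetyl-CoA through mevalonate, farnesyl diphosphate and squalene, and they make fatty acids from the same acetyl-CoA pool. The SREBPs are made as membrane precursors. When sterols are low, the escort Scap carries them to the Golgi, where proteases release the part that enters the nucleus, and when sterols are plentiful, Insig proteins hold Scap back in the endoplasmic reticulum. The form encoded by Srebf2 acts mainly on the sterol genes, and the main form encoded by Srebf1 acts mainly on the fatty acid genes.

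Depth differed between libraries. The deposited matrices held 44819 barcodes with 22996012 to 126645602 unique molecular identifiers (UMIs) each, and 37002 cells were kept, 2144 to 10304 per mouse. Cells were clustered and named from marker genes, and UMIs were summed per mouse and cell class, which gave 7 classes with at least 20 cells in all 6 mice. Levels are given as CPM, the count scaled to 1e6 UMIs of the class. The tumour and ductal epithelial class held 1727, 2539 and 816 cells in treated mice, against 786, 3392 and 2611 cells in vehicle mice. All 13 epithelial markers were detected in it, and their summed level was 5034, 3598 and 14359 CPM in treated mice, against 5001, 15300 and 8243 CPM in vehicle mice. The class rests on these markers alone, since mutations were not read from the cells. Treated mice 1 and 2 were closer to each other in this class than any other pair. Their log2 ratios over genes had a spread of 0.152, whereas the other 14 pairs ranged from 0.524 to 0.968, and 61.8% and 62.5% of their tumour cells shared 1 cluster. They were also the closest pair in macrophages and monocytes, fibroblasts and endothelial cells, with spreads of 0.243, 0.218 and 0.259. Their chi-square per gene in tumour cells was 29.6, above sampling noise. That value cannot decide whether they are separate animals, since 2 libraries of 1 tumour could also exceed sampling noise. The median log2 level of each chromosome's genes, relative to the mean of the 6 mice, was also close in these 2. It was 0.25 and 0.24 on chromosome 4, where treated 3 had −0.17. The gap was widest on chromosome 17, with −0.46 and −0.57, where treated 3 had 0.18. Whether the 2 libraries come from 1 tumour was not tested. They were kept as 2 mice, as the sample titles number them, and results were recomputed with the pair summed. Any 2 libraries shared 0 to 22 cell barcodes.

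In tumour cells the sterol enzymes were lower in the treated mice as a group. All 18 had a log2 fold change below 0, treated over vehicle, with a median of −1.02, while 53.8% of the 15494 genes tested were below 0 and their median was −0.06. The summed level of the 18 enzymes was 445, 436 and 337 CPM in treated mice (mean 406 ± 59.9, SD, n = 3) and 597, 1028 and 1058 CPM in vehicle mice (mean 895 ± 258, SD, n = 3), a ratio of means of 0.454. All 3 treated mice lay below all 3 vehicle mice. The nearest vehicle mouse was vehicle 1, which also had the fewest UMIs in the class. No member passed the test gene by gene. With edgeR's quasi-likelihood test and Benjamini-Hochberg adjustment over all genes at 0.05, 0 of 31 members and 0% of all genes were called, and the lowest adjusted p of a member was 0.397. At an unadjusted p under 0.05, 16 of 31 members were lower and 0 were higher, beside 6.64% of all genes lower and 5.37% higher. DESeq2 called 6 members lower, Acat2, Mvk, Pmvk, Lss, Cyp51 and Insig1, with adjusted p of 0.00951 to 0.0477, where it called 1.28% of all genes lower and 1.63% higher. In 15 members the treated mice all lay below the vehicle mice, and in 0 the reverse, beside 9.31% and 10.5% of all genes.

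**Figure D1:**
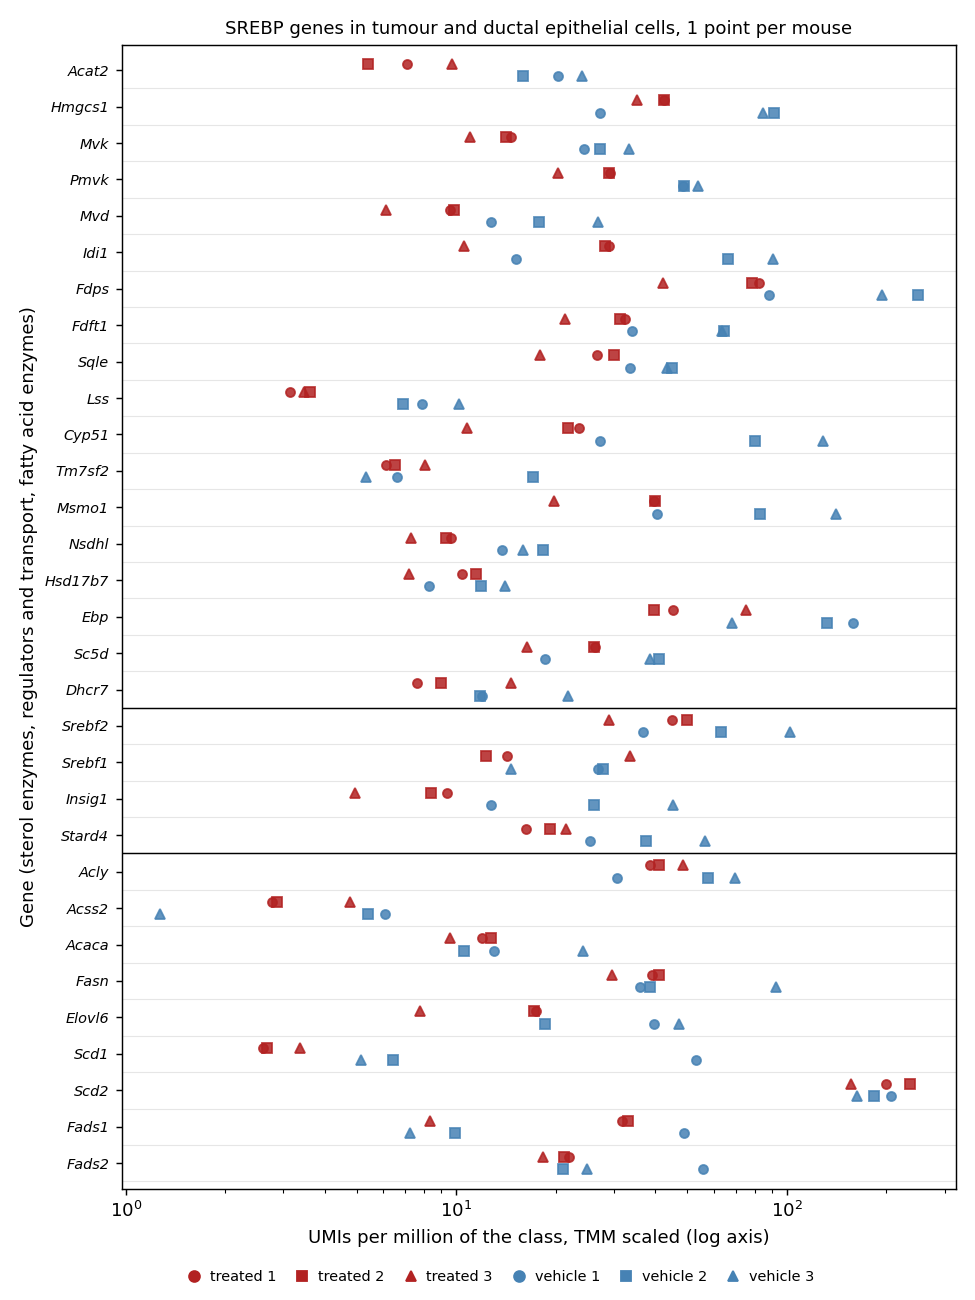
Each of the 31 genes in tumour and ductal epithelial cells, with CPM of the class after TMM scaling on a log axis, 1 point per mouse, treated mice above vehicle mice within each row. In 15 rows, 11 of them sterol enzymes, every treated point lies left of every vehicle point.

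The enzymes that build mevalonate and its phosphates were among the members with separate groups. Acat2, the cytosolic thiolase that joins acetyl-CoA units (chromosome 17, 12942890 to 12960747, minus strand), had 7.11, 5.42 and 9.70 CPM in treated mice and 20.3, 15.9 and 24.1 CPM in vehicle mice. Its log2 fold change was −1.43 (SE 0.331, edgeR adjusted p = 0.397, DESeq2 adjusted p = 0.0124). Mvk, mevalonate kinase (chromosome 5, 114444269 to 114460591, plus strand), had 14.6, 14.2 and 10.99 CPM in treated mice and 24.3, 27.25 and 33.4 CPM in vehicle mice, a log2 fold change of −1.09 (SE 0.256). Both genes had every treated mouse below every vehicle mouse. Pmvk, which adds the next phosphate, had 29.2, 28.9 and 20.3 CPM in treated mice against 48.6, 49.0 and 53.7 CPM in vehicle mice, a log2 fold change of −0.95. Mvd, the decarboxylase after it, had a log2 fold change of −1.16 with 6.13 to 9.87 CPM in treated mice and 12.7 to 26.9 CPM in vehicle mice. Hmgcs1, which makes HMG-CoA, did not separate the groups. It had 42.4, 42.5 and 35.1 CPM in treated mice and 27.1, 91.4 and 84.5 CPM in vehicle mice, with vehicle 1 the lowest of the 6.

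Further down the pathway the same contrast between vehicle 1 and the other vehicle mice recurred. Fdps, farnesyl diphosphate synthase (chromosome 3, 89093588 to 89101959, minus strand), had 82.6, 78.4 and 42.3 CPM in treated mice and 88.2, 249 and 194 CPM in vehicle mice, a log2 fold change of −1.39 (SE 0.458). Vehicle 1 was just above treated 1 here. Fdps and Tm7sf2 each overlap another protein-coding gene on the same strand in the annotation, so their counts are uncertain in every class. Idi1, the isomerase that supplies Fdps, had 29.0, 28.2 and 10.6 CPM in treated mice against 15.1, 66.2 and 90.6 CPM in vehicle mice, so its groups overlapped. Fdft1, squalene synthase, and Sqle, squalene epoxidase, had log2 fold changes of −0.93 and −0.71, each with separate groups. Lss, which closes squalene epoxide into lanosterol, was low in every mouse, with 3.13, 3.61 and 3.46 CPM in treated mice and 7.85, 6.89 and 10.2 CPM in vehicle mice, a log2 fold change of −1.28.

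Among the enzymes that turn lanosterol into cholesterol, the largest difference was in Cyp51, lanosterol demethylase (chromosome 5, 4081145 to 4104746, minus strand). It had 23.5, 21.8 and 10.8 CPM in treated mice and 27.22, 80.3 and 129 CPM in vehicle mice. Its log2 fold change was −2.08 (SE 0.605, edgeR adjusted p = 0.398, DESeq2 adjusted p = 0.0444), and leaving out 1 mouse at a time gave −1.53 to −2.50. Vehicle 1 again lay next to the treated mice. Msmo1, the methyl sterol oxidase, had 39.5, 40.0 and 19.7 CPM in treated mice and 40.6, 83.1 and 141 CPM in vehicle mice, a log2 fold change of −1.41. Nsdhl, the dehydrogenase that works with Msmo1, had 9.64, 9.32 and 7.32 CPM in treated mice and 13.7, 18.3 and 15.9 CPM in vehicle mice, a log2 fold change of −0.87. Groups of the other enzymes between lanosterol and cholesterol overlapped. Ebp, the sterol isomerase, had 45.3, 39.5 and 75.2 CPM in treated mice and 159, 132 and 68.0 CPM in vehicle mice, with treated 3 above vehicle 3. The remaining members of this part, the reductases Tm7sf2, Hsd17b7 and Dhcr7 and the desaturase Sc5d, had log2 fold changes of −0.48, −0.24, −0.55 and −0.51.

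Of the regulators, the feedback gene showed the larger difference and the factor genes the smaller. Insig1, which retains Scap and is itself an SREBP target (chromosome 5, 28071363 to 28078662, plus strand), had 9.35, 8.37 and 4.94 CPM in treated mice and 12.7, 26.0 and 45.3 CPM in vehicle mice. Its log2 fold change was −1.89 (SE 0.517, edgeR adjusted p = 0.397, DESeq2 adjusted p = 0.0392), and every treated mouse lay below every vehicle mouse. Stard4, a sterol carrier between membranes, had 16.2, 19.2 and 21.5 CPM in treated mice and 25.3, 37.6 and 56.3 CPM in vehicle mice, a log2 fold change of −1.07. Srebf2 had 44.9, 49.9 and 28.9 CPM in treated mice and 36.8, 63.3 and 102 CPM in vehicle mice, a log2 fold change of −0.71 with overlapping groups. Srebf1 stood at −0.20, and its sign turned to 0.024 when treated 1 and 2 were summed. Its UMIs do not separate the 2 main transcript forms of the gene.

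Promoter sequences are shown for members on both sides of the contrast between sterol and fatty acid genes. They are the 250 bases before the RefSeq start of each gene in mouse build GRCm38.p6, written 5′ to 3′ on the strand of the gene. Hmgcs1 lies at chr13:119690101-119690350 and is the 1 member whose window held the sterol element searched. Mvk (chr5:114444019-114444268), Cyp51 (chr5:4104698-4104947, minus strand) and Insig1 (chr5:28071162-28071411) are members that DESeq2 called. Elovl6 (chr3:129532136-129532385) is a fatty acid enzyme with separate groups. Capitals mark matches to the sterol regulatory element consensus TCACNCCAC and to the CCAAT box, which reads ATTGG on the other strand.
Hmgcs1: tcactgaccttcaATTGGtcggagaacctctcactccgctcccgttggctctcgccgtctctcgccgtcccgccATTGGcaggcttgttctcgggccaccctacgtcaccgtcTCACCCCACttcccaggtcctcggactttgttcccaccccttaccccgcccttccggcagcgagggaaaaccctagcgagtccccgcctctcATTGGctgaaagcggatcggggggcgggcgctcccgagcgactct
Mvk: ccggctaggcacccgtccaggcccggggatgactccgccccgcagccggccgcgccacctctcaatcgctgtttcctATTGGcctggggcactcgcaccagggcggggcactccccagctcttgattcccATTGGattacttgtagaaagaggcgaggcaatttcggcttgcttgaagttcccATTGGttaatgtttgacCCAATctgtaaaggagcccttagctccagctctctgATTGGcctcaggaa
Cyp51: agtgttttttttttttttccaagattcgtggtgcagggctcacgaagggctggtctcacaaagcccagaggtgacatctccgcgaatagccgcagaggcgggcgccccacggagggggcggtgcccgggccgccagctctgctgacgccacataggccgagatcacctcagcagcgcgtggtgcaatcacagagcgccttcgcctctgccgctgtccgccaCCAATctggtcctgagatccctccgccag
Insig1: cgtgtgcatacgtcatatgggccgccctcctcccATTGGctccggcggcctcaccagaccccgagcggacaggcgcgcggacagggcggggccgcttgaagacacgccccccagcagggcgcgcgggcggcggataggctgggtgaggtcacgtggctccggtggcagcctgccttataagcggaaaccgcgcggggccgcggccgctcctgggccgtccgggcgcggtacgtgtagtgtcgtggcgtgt
Elovl6: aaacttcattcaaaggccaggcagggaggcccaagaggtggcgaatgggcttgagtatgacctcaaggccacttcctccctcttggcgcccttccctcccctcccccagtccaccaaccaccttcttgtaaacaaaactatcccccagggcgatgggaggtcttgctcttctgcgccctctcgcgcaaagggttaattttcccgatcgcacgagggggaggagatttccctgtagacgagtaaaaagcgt
RefSeq entries were found for 24 of the 31 members, and both strands were searched for TCACNCCAC, for CCAAT and for the E-box CANNTG. The CCAAT box was in 14 of 15 sterol enzymes, 3 of 3 regulators and 2 of 6 fatty acid enzymes, Acss2 and Fasn, which makes 79.2% of members beside 37.5% of all 27025 genes in the table. Acat2 was the sterol enzyme without it, and its log2 fold change in tumour cells was −1.43. The TCACNCCAC consensus was in 4.17% of members and 1.22% of all genes, and CANNTG was in 54.2% of members and 69.3% of all genes. A match describes letters in this window, not binding.

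The fatty acid enzymes differed less between the groups than the sterol enzymes. Of the 9, 7 were below 0 with a median log2 fold change of −0.48, and their summed level was 366, 408 and 287 CPM in treated mice (mean 354 ± 61.6, SD, n = 3) and 489, 352 and 436 CPM in vehicle mice (mean 426 ± 69.2, SD, n = 3). Those groups overlapped, and the ratio of means was 0.83. The desaturase Scd2, at 157 to 236 CPM, was the largest part of this sum in every mouse, so the ratio leans on 1 gene. On plain library totals, without TMM, the fatty acid sum was 398 ± 73.3 CPM in treated mice and 380 ± 74.1 CPM in vehicle mice (SD, n = 3 each). The direction of the sum therefore depended on the scaling. The median of the sterol enzymes minus that of the fatty acid enzymes was −0.54, and it was −0.31 to −0.64 under all alternatives run, with no test of the lists. Scd1, the stearoyl-CoA desaturase (chromosome 19, 44394455 to 44407879, minus strand), had 2.59, 2.68 and 3.36 CPM in treated mice and 53.1, 6.44 and 5.17 CPM in vehicle mice. Its log2 fold change of −2.88 became −1.02 without vehicle 1, the mouse with the high value. Scd2, a desaturase of the same family whose transcripts are similar enough that reads may be shared, carried far more UMIs and did not differ in the same way. It had 200, 236 and 157 CPM in treated mice and 206, 184 and 163 CPM in vehicle mice, a log2 fold change of 0.10.

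Elovl6, which lengthens palmitate, was the other fatty acid enzyme with separate groups. It had 17.4, 17.2 and 7.77 CPM in treated mice and 39.6, 18.6 and 47.1 CPM in vehicle mice, a log2 fold change of −1.31 (SE 0.469, edgeR adjusted p = 0.400). Fasn, fatty acid synthase, had 39.2, 41.1 and 29.6 CPM in treated mice and 36.0, 38.5 and 92.6 CPM in vehicle mice, so that vehicle 3 alone stood apart. The enzymes that supply its substrates, Acly from citrate, Acss2 from acetate and Acaca as malonyl-CoA, had log2 fold changes of −0.31, −0.28 and −0.48 with overlapping groups. Fads1 and Fads2 desaturate polyunsaturated fatty acids. Fads1 had 31.8, 33.2 and 8.35 CPM in treated mice and 48.9, 9.94 and 7.26 CPM in vehicle mice, and its log2 fold change of 0.16 became 1.49 without vehicle 1. Fads2 stood at −0.73, with vehicle 1 the highest at 55.8 CPM.

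Other genes of the pathway, taken from a list of 37, were also more often lower than higher in treated tumour cells. Of the 36 tested, 27 were below 0 and 9 above, beside 53.8% of all genes below 0. Their median was −0.46, beside −0.06 for all genes. edgeR called 0 of them and 0% of all genes. At an unadjusted p under 0.05, 8 were lower and 0 higher, beside 6.64% and 5.37% of all genes. In 9, every treated mouse lay below every vehicle mouse, and in 0 the reverse, beside 9.31% and 10.5%. Tmem97, a sterol-responsive membrane protein of the endoplasmic reticulum, had 12.9, 10.8 and 6.74 CPM in treated mice and 27.3, 21.8 and 49.9 CPM in vehicle mice, a log2 fold change of −1.70. Acacb, which makes malonyl-CoA at the mitochondrion, stood at −1.18 with at most 2.20 CPM in any mouse, while Acsl1 and Mcat, which activate fatty acids and load mitochondrial synthesis, stood at 0.43 and 0.42. The SREBP machinery itself showed small differences, with Scap at 0.09, Insig2 at −0.27, and the proteases Mbtps1 and Mbtps2 at 0.28 and −0.22.

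Scaling and cell state moved alongside these results. TMM scaling (trimmed mean of M-values) set the median of all genes to −0.06, and plain library totals set it to 0.27. Under the library totals the sterol median was −0.68 and the fatty acid median −0.095. Relative to all genes, the sterol median was −0.94 with the totals and −0.96 with TMM, and the fatty acid median −0.36 and −0.42. Under the library totals 17 of 18 sterol enzymes were below 0, and 9 members had every treated mouse below every vehicle mouse, beside 3.45% of all genes, and 20.4% of all genes had the reverse. Those 9 were Acat2, Mvk, Pmvk, Mvd, Lss, Nsdhl, Insig1, Stard4 and Scd1. With all 6 mice, 12 sterol enzymes and 12.0% of 15494 genes had an unadjusted p under 0.05. Without vehicle 1 the sterol median was −1.17 and 14 sterol enzymes had such a p, beside 15.2% of 16239 genes. The count was 6 without vehicle 2, beside 14.7% of all genes, and 7 without vehicle 3, beside 11.2%. It was 8 without treated 1, 8 without treated 2 and 7 without treated 3, beside 4.18%, 3.82% and 16.8% of all genes. With treated 1 and 2 summed into 1 sample, 8 sterol enzymes had such a p, beside 4.08% of 16506 genes. The sterol median was then −1.02. Besides the library totals, the 1 alternative run with fewer than 18 below 0 was that without vehicle 2, where Tm7sf2 stood at 0.23.

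The share of tumour cells in sub-clusters of dividing cells was 16.4%, 13.6% and 9.31% in treated mice, against 14.2%, 9.79% and 35.7% in vehicle mice. The sums of dividing and other cells are in CPM of plain library totals, without TMM, a scale on which all tumour cells of a mouse summed to 500.3, 495 and 374 CPM in treated mice and 568, 992 and 811 CPM in vehicle mice. Within cells outside the dividing sub-clusters the sterol enzymes summed to 483, 475 and 357 CPM in treated mice and 528, 921 and 829 CPM in vehicle mice, and the groups again did not overlap. In the dividing sub-clusters the sums were 564, 575 and 467 CPM in treated mice and 685, 1360 and 795 CPM in vehicle mice. Dividing cells had the higher sum in all 3 treated mice and in 2 of 3 vehicle mice, the exception being vehicle 3. Without dividing sub-clusters the median log2 fold change of the sterol enzymes was −0.98. Genes induced by tissue dissociation summed to 3367, 2776 and 3865 CPM in treated tumour cells and 1615, 2820 and 2221 CPM in vehicle tumour cells. Fos, Fosb and Jun, 3 of 9, had every treated mouse above every vehicle mouse, beside 10.5% of all genes. The reverse held in 0, beside 9.31%. Median UMIs per tumour cell were 21699, 19073 and 37355 in treated mice, against 11638, 15829 and 24978 in vehicle mice, and the median mitochondrial share was 3.53%, 3.92% and 6.97% in treated mice, against 3.30%, 4.29% and 2.79% in vehicle mice. The part of dissociation, depth and mitochondrial share in the result was not tested.

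**Figure D2:**
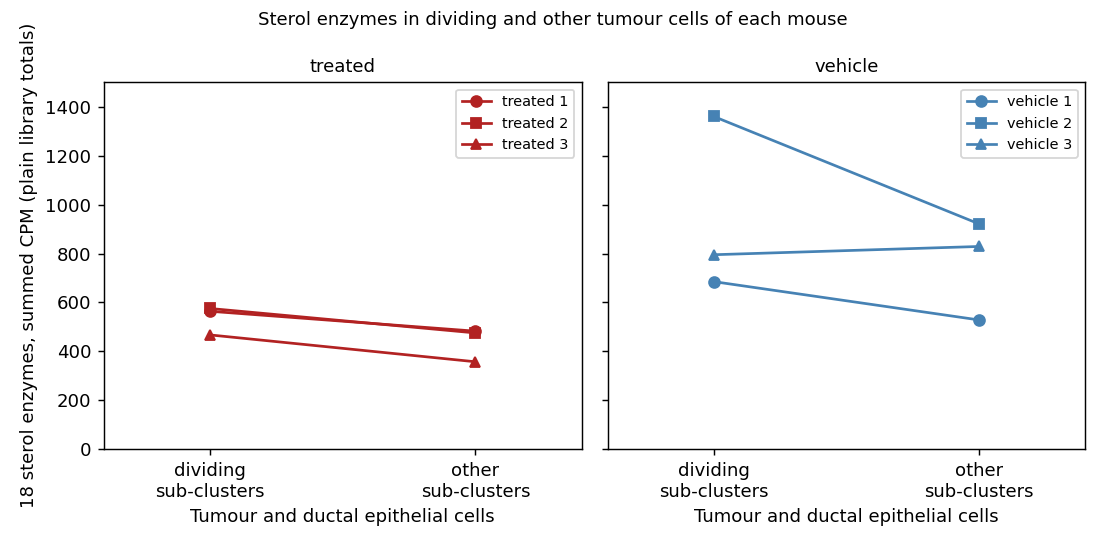
Summed CPM, on plain library totals without TMM, of the 18 sterol enzymes in dividing and other sub-clusters of tumour and ductal epithelial cells, 1 line per mouse, treated mice in the left panel and vehicle mice in the right. Outside the dividing sub-clusters the treated mice span 357 to 483 CPM and the vehicle mice 528 to 921 CPM.

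In vehicle mice the sterol enzymes were at their highest summed level in tumour cells among the 7 classes. Levels are CPM of a class, compared within a gene or a list and not between genes, and fewer copies per cell cannot be told apart from more RNA of other genes. The sterol sum was 790 ± 213 CPM in tumour cells, 423 ± 50.04 in macrophages and monocytes, 392 ± 158 in endothelial cells, 375 ± 37.6 in fibroblasts, 347 ± 112 in neutrophils, 308 ± 130 in T and NK cells and 228 ± 114 in B cells (SD, n = 3 vehicle mice each). The lowest tumour value, 568 CPM, was above the highest value of each of the other 6 classes, and the ranges of neighbours below it overlapped. Of the 18 sterol enzymes, 14 had their highest mean in tumour cells, but only Fdft1, Sqle, Msmo1 and Nsdhl of those 14 had ranges that did not overlap the next class. The fatty acid sum was 468 ± 90.1 CPM in B cells, 380 ± 74.1 in tumour cells and 366 ± 44.7 in fibroblasts, with overlapping ranges, and 114 ± 47.8 in T and NK cells. Scd1 made up most of the B cell sum, with 330 ± 107 CPM in B cells and 30.9 ± 12.8 CPM in fibroblasts, the next class. The classes were clustered on the same counts, so these levels are given with no test.

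**Figure D3:**
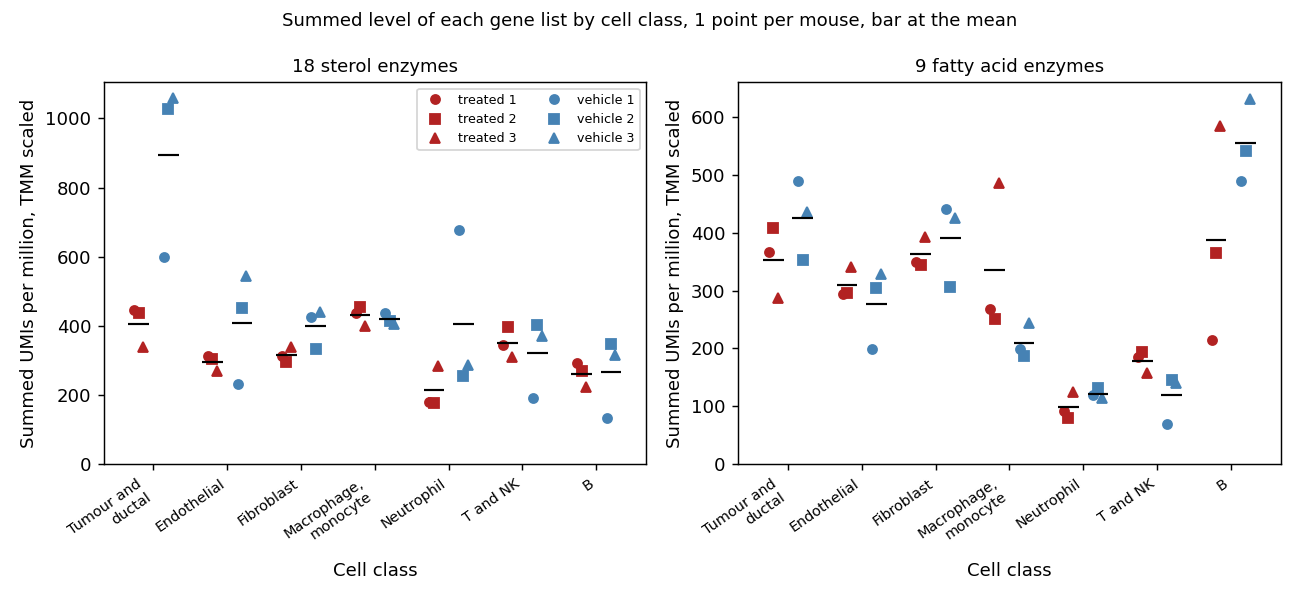
Summed CPM, TMM scaled, of the 18 sterol enzymes (left panel) and the 9 fatty acid enzymes (right panel) in each of 7 cell classes, 1 point per mouse with treated mice left of vehicle mice and a bar at each mean. In tumour cells the treated points for the sterol enzymes lie between 337 and 445 CPM and the vehicle points between 597 and 1058 CPM.

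In endothelial cells most members were also below 0. Of the 27 members tested, 0 were called by edgeR, where 1.48% of 10161 genes were called, and 0 by DESeq2, where 1.92% were lower and 0.374% higher. At an unadjusted p under 0.05, 8 members were lower and 0 higher, beside 11.9% and 8.42% of all genes. Of the sterol enzymes, 15 of 16 tested were below 0 with a median of −0.53, beside 48.1% of all genes and a median of 0.02. Fdps had 34.1, 29.4 and 23.6 CPM in treated mice and 26.5, 66.1 and 88.8 CPM in vehicle mice, a log2 fold change of −1.24 (SE 0.284, edgeR adjusted p = 0.053). Cyp51 had 7.71, 4.29 and 8.92 CPM in treated mice and 0, 20.99 and 32.2 CPM in vehicle mice, a log2 fold change of −1.60 (edgeR adjusted p = 0.0759). The 0 is vehicle 1, which had only 48 endothelial cells. Fasn followed at −1.35, and Scd2, Stard4 and Dhcr7 had the highest values at 0.30, 0.29 and 0.24. Mvd and Fdft1 were the 2 members with every treated mouse below every vehicle mouse, beside 13.2% of all genes, and 0 had the reverse, beside 14.1%.

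Without vehicle 1, edgeR called 6 members lower in endothelial cells, Pmvk, Idi1, Fdps, Cyp51, Fasn and Elovl6, with adjusted p of 0.00344 to 0.0443, where 5.73% of 10783 genes were called lower and 1.84% higher. With all 6 mice, 1.25% of 10161 genes were lower and 0.226% higher. Tmem97 passed the test with all 6 mice. It had 4.95, 2.45 and 4.90 CPM in treated mice and 19.9, 10.9 and 23.4 CPM in vehicle mice, a log2 fold change of −1.79 (SE 0.436, edgeR adjusted p = 0.0486). Dividing cells made up 7.11%, 7.91% and 8.09% of endothelial cells in treated mice, against 16.7%, 29.3% and 24.7% in vehicle mice, and 7 of 12 cell cycle genes tested were called lower. On plain library totals, the sterol enzymes of endothelial cells outside the dividing sub-clusters summed to 332, 303 and 272 CPM in treated mice and 185, 443 and 499 CPM in vehicle mice, beside 328, 308 and 275 CPM in all treated endothelial cells and 212, 458 and 507 CPM in all vehicle endothelial cells. Epithelial markers, all 13 of them detected, summed to 92.8, 139 and 106 CPM in treated endothelial cells and 212, 584 and 353 CPM in vehicle endothelial cells, and their part in the result was not tested.

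In fibroblasts too most members were below 0. All 31 members were tested, 24 were below 0 beside 49.7% of all genes, and the median of the sterol enzymes was −0.23. edgeR called 0 members and 0% of 12461 genes, with 4 members lower and 0 higher at an unadjusted p under 0.05, beside 8.48% and 7.58% of all genes. Fdps had 31.8, 28.2 and 32.0 CPM in treated mice and 110, 50.8 and 61.2 CPM in vehicle mice, a log2 fold change of −1.23, and DESeq2 called it, its 1 member called (adjusted p = 0.0222, edgeR adjusted p = 0.191), beside 1.36% of all genes lower and 1.25% higher. Fdps was 1 of 6 members with every treated mouse below every vehicle mouse, beside 11.4% of all genes, and 0 had the reverse, beside 12.5%. Elovl6 and Fdft1 had the next lowest values at −0.66 and −0.61, and Acss2 had the highest at 0.69, followed by Fads1 and Scd2 at 0.29 each.

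In macrophages and monocytes the members were not mostly below 0, though no difference in response from tumour cells passed its test, given below. Of 31 members tested, 14 were below 0 and 17 above, beside 49.4% of all genes below 0, with medians of 0.06 for the sterol and 0.08 for the fatty acid enzymes. edgeR called 0 members and 0% of 11654 genes, DESeq2 called 0 members, beside 1.41% of all genes lower and 1% higher, and 2 members each were lower and higher at an unadjusted p under 0.05, beside 5.55% and 4.83% of all genes. The treated mice all lay below the vehicle mice in 3 members and above them in 3, beside 8.79% and 8.61% of all genes. Acly had 153, 145 and 363 CPM in treated mice and 119, 90.0 and 140 CPM in vehicle mice, and Acaca had 22.6, 13.1 and 42.8 CPM against 11.2, 10.6 and 16.2 CPM. Treated 3 was the highest in both, and without it the log2 fold changes of 0.92 and 1.04 became 0.36 and 0.47. Dhcr7 stood at 0.69, Scd1 at −0.84 and Elovl6 at −0.79. Fdft1 had 6.70, 6.55 and 7.55 CPM in treated mice and 21.3, 10.2 and 9.47 CPM in vehicle mice, a log2 fold change of −0.88, or −0.48 without vehicle 1.

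Fewer members could be tested in the remaining classes. In neutrophils 18 were tested, 13 of them below 0 beside 54% of all genes. Of the sterol enzymes, 9 of 11 tested were below 0 with a median of −0.65, beside a median of −0.06 for all genes. edgeR called 0 members and 0% of 7808 genes, and DESeq2 called 0 members, beside 0.0128% of all genes in each direction. At an unadjusted p under 0.05, 4 members were lower and 0 higher, beside 4.29% and 0.768% of all genes, and 6 had every treated mouse below every vehicle mouse and 0 the reverse, beside 5.51% and 5.17%. Fdps had 13.3, 11.8 and 49.8 CPM in treated mice and 354, 29.8 and 39.8 CPM in vehicle mice, so its log2 fold change of −2.37 became −0.34 without vehicle 1, where 19.96% of neutrophils were in dividing sub-clusters. Fasn had 1.33, 1.97 and 3.73 CPM in treated mice and 15.6, 6.72 and 9.75 CPM in vehicle mice, a log2 fold change of −1.60. Sqle stood at −1.18, and Sc5d, Srebf1 and Insig1 had the highest values at 0.52, 0.42 and 0.26. In T and NK cells 10 were tested and 0 called, beside 0.0197% of 5067 genes, with 0 at an unadjusted p under 0.05, beside 2.37% lower and 1.48% higher, and 0 by DESeq2, beside 0.0592% and 0.0197%. Acly had 68.0, 81.6 and 60.2 CPM in treated T and NK cells and 17.4, 46.6 and 52.8 CPM in vehicle T and NK cells, and it was the 1 member with every treated mouse above every vehicle mouse, beside 6.06% of all genes, while 0 had the reverse, beside 4.38%. Its log2 fold change was 0.54, and Stard4 and Fasn followed at 0.47 and 0.45, while Fdps, Srebf2 and Sc5d had the lowest values at −0.28, −0.26 and −0.25. In B cells only Srebf2 and Scd1 were tested, at −0.35 and −0.33, with 0 called beside 0% of 1923 genes. There 0 had an unadjusted p under 0.05, beside 1.46% lower and 0.988% higher, and DESeq2 called 0, beside 0.052% in each direction.

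**Figure D4:**
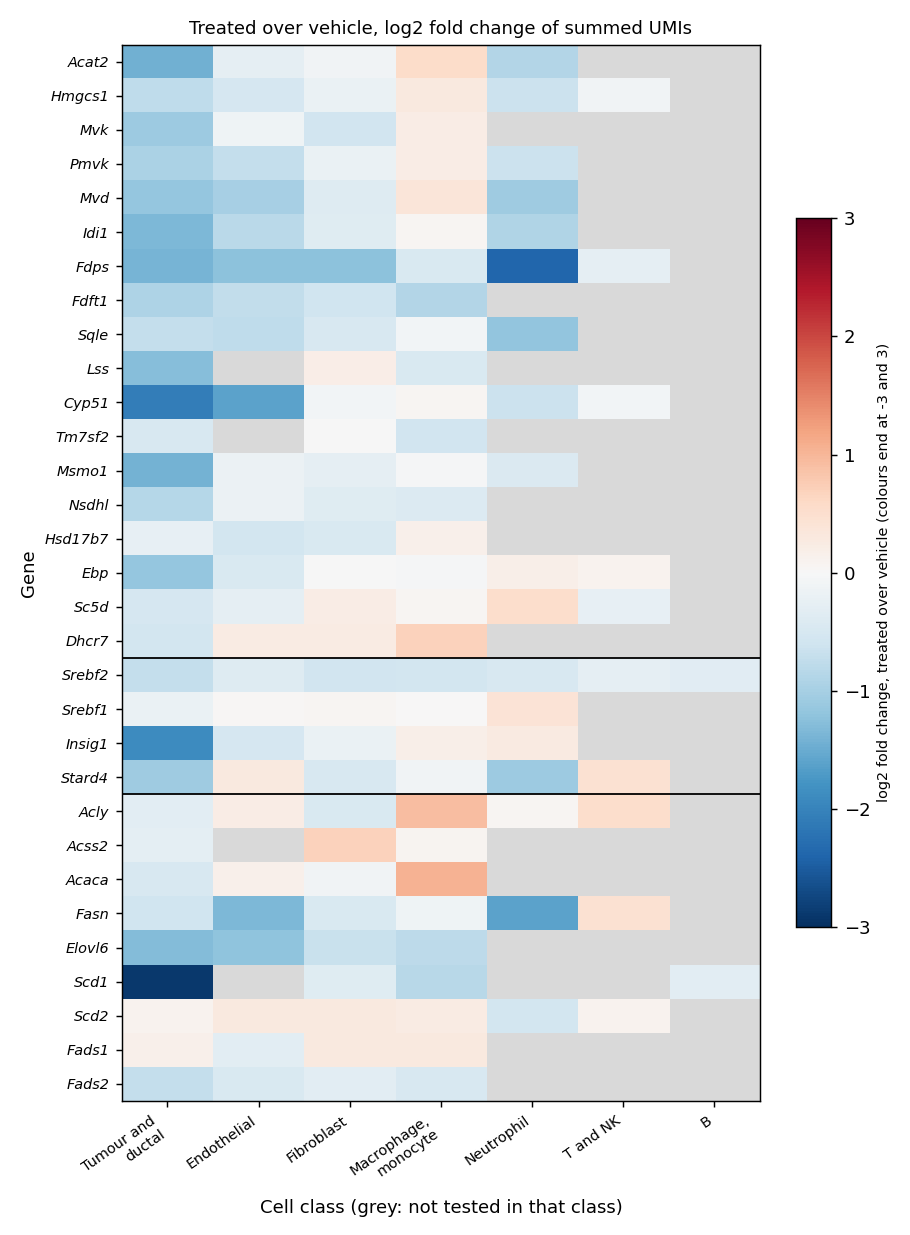
Log2 fold change, treated over vehicle, of each of the 31 genes (rows) in each of 7 cell classes (columns), with lower values in blue, higher values in red and untested genes in grey. The tumour column is blue in 29 of 31 rows, and the macrophage column in 14 of 31.

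The difference in response between tumour cells and another class was tested with a class-by-treatment term and the mouse held fixed. Against macrophages and monocytes, 0 of 31 members and 0% of 15463 genes passed, and 13 members had an unadjusted p under 0.05, beside 12% of all genes. The lowest adjusted p was 0.251, for Acat2 and Cyp51, whose log2 ratios of the tumour change over the macrophage change were −2.00 (SE 0.366) and −2.07 (SE 0.419). Against fibroblasts, 0 of 31 members passed, beside 0.00652% of 15346 genes, and 6 had an unadjusted p under 0.05, beside 8.06%. Against endothelial cells, 0 of 31 members and 0% of 14001 genes passed, and 4 had an unadjusted p under 0.05, beside 9.89%. Stard4, Msmo1 and Insig1 had ratios of −1.53, −1.65 and −1.61 there. The median ratio of the sterol enzymes was −0.995 against macrophages, −0.80 against fibroblasts and −0.47 against endothelial cells. No member was therefore shown to respond differently in tumour cells than in these classes.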

How the data were processed

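The authors deposited raw UMI counts per gene and barcode for 6 libraries, made with Cell Ranger 5.0.1 on mouse build mm10, per the submitters' processing notes. The library chemistry, the annotation release and the counting strand are not given in the sources used here.

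Cells with at least 500 UMIs, 250 genes and at most 20% mitochondrial UMIs were kept (39928 of 44819). Scrublet's own threshold called at most 0.973% of a library, so the highest-scoring 0.8% per 1000 barcodes, 2926 in all, were left out as doublets. Clusters (scanpy 1.11.5, Leiden) were divided again into 269 sub-clusters and named from fixed markers, leaving 1985 cells (5.36%) unnamed. Droplets hold free RNA of other cells, and 1 alternative left out every gene whose level in a class was below 10% of that in some other class. Counts were summed per mouse and class and tested with edgeR 4.0.16 (TMM, filterByExpr, robust quasi-likelihood, two-sided, prior count 2), after a check on simulated counts, with DESeq2 1.42.0 as an alternative. CPM per mouse are TMM scaled, except that levels across classes, sums of dividing and other cells and marker sums use plain library totals. Dividing sub-clusters had at least 5 cell cycle genes at 4-fold or more over the 25th percentile of sub-clusters, after adding 10 CPM to both. Coordinates come from GENCODE M21 on mm10 by gene identifier, and 8 members overlap another protein-coding gene. The members and lists were chosen with earlier results of these data known. All members are named in tumour cells, and in other classes those that passed plus the 3 highest and 3 lowest. Sums, not cells, are the replicates, and p-values measure spread between 3 mice a group.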

Additional observations from a re-analysis of the deposited data

Results flagged for a closer look

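Acat2, the cytosolic thiolase at the start of sterol synthesis, differed in opposite directions in 2 classes, with no overlap between the groups in either. It was picked from all members and classes by that rule, so the lack of overlap is no further support. Of all genes, 9.31% had treated mice below in tumour cells and 8.61% above in macrophages and monocytes. In the latter, 0 sterol enzymes were higher at an unadjusted p under 0.05 by edgeR, beside 4.83% of all genes. In tumour cells it had 7.11, 5.42 and 9.70 CPM in treated mice and 20.3, 15.9 and 24.1 CPM in vehicle mice, and in macrophages and monocytes it had 8.34, 9.10 and 8.43 CPM in treated mice and 6.09, 4.42 and 7.08 CPM in vehicle mice. The difference itself, tested as a class-by-treatment term, was −2.00 on the log2 scale (SE 0.366, edgeR adjusted p = 0.251), so it did not pass. The median log2 level of the 402 chromosome 17 genes in tumour cells, relative to the mean of the 6 mice, was −0.46, −0.57 and 0.18 in treated mice, against 0.09, 0.27 and 0.37 in vehicle mice, and the part of this shift in the Acat2 values was not tested.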

How the results depend on the processing

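Counts of members called moved under 3 kinds of setting. DESeq2 called 6 members in tumour cells and 1 in fibroblasts, where edgeR called 0. In endothelial cells edgeR called 4 with no filter on low counts (4.37% of all genes), 1 with cells of at least 500 genes (1.63%), 2 without genes under 10% of another class (2.88%), and 0 to 6 when 1 mouse at a time was left out (0.0093% to 7.57%), against 0 and 1.48% before. The replicate block called 0 members in every class tested and gave a sterol median of −1.03 in tumour cells, with 6 sterol enzymes at an unadjusted p under 0.05 where the fit without it had 12, beside 8.31% of all genes with the block and 12.0% without. The sample titles do not say whether same-numbered mice belong together. Deviations of same-numbered mice correlated at 0.04, −0.21 and −0.04 in tumour cells and at 0.04, 0.105 and 0.09 in macrophages and monocytes. The reason for the lower count under the block was not tested. Plain library totals, chosen after seeing the data, turned Hsd17b7 to 0.12, Srebf1 to 0.084 and Acly to 0.053 in tumour cells. Summing treated 1 and 2 turned Srebf1 to 0.024 and Fads1 to −0.082, and leaving out dividing sub-clusters turned Fads1 to −0.044. Leaving out 1 mouse at a time gave −0.81 to 0.055 for Srebf1, −0.26 to 1.49 for Fads1, −0.78 to 0.23 for Tm7sf2, −0.72 to 0.050 for Acss2 and −0.044 to 0.23 for Scd2 in tumour cells, −0.075 to 0.44 for Dhcr7 in endothelial cells, −0.53 to 0.97 for Sc5d in neutrophils and −0.57 to 0.30 for Srebf2 in T and NK cells. The cause of these changes was not tested. The sterol median in tumour cells was −0.68 to −1.17 and the fatty acid median −0.095 to −0.69 over all settings run. Depth limits small sums: vehicle 1 had 41 T and NK cells with 67961 UMIs, 45 B cells with 70494 and 48 endothelial cells with 165036.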

Other observations

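Across the 6 tumour sums, the sterol enzymes varied together more than the fatty acid enzymes did. The median Pearson r of log2 CPM was 0.75 over 153 pairs of sterol enzymes, 0.15 over 36 pairs of fatty acid enzymes and 0.25 over 162 pairs across the lists. The points share 6 libraries and both treatment groups, so this is a description with no test. The 5 genes outside the lists with the highest r to the mean of the sterol enzymes were Stambpl1 (0.997), Rab1b (0.993), Cdk2ap2 (0.990), Pitpnm1 (0.986) and Psmd11 (0.985), again over 6 sums. The first 4 lie on chromosome 19 and Psmd11 on chromosome 11.

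Tumour sums of different mice also differed by whole chromosomes. On chromosome 5, which carries Mvk, Cyp51 and Insig1, the median log2 level of 570 genes relative to the mean of the 6 mice was −0.18, −0.19 and −0.14 in treated mice, against 0.13, −0.06 and 0.40 in vehicle mice. The treated mice lay below the vehicle mice there, by a difference of group means of −0.33. The same order held on chromosome 11, which carries Srebf1, Acly, Acaca and Fasn, with −0.22, −0.29 and 0.081 in treated mice, against 0.084, 0.17 and 0.22 in vehicle mice, a difference of −0.30. On chromosomes 1, 6, 7 and 15 every treated mouse lay above every vehicle mouse, with differences of group means of 0.21, 0.40, 0.09 and 0.19. Chromosome 1 carries Hsd17b7, chromosome 7 carries Dhcr7, chromosome 15 carries Sqle and Srebf2, and chromosome 6 carries 0 members. On chromosome 19, which carries Scd1, Scd2, Fads1, Fads2 and Tm7sf2, treated 3 stood at −0.35 and the other 5 mice between −0.01 and 0.17.

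Among classes too small for a test, plasmacytoid dendritic cells of vehicle 3 (41 cells) had a sterol sum of 1385 CPM, above the 568 to 992 CPM of vehicle tumour cells, and red cells of vehicle 1 (26 cells) had 25.9 CPM. Each rests on 1 mouse.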
